A study of Mus musculus with 4 samples.

Results

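Progenitor legacy transcription factors are genes of stem cells and multipotent progenitors that early T cell progenitors (ETP) still express when they arrive in the thymus and that are shut off at T lineage commitment. The 10 members, *Lmo2*, *Lyl1*, *Mef2c*, *Bcl11a*, *Hhex*, *Spi1*, *Meis1*, *Erg*, *Gfi1b* and *Hoxa9*, were chosen by symbol from the 23361 genes of the deposited table. *Spi1* is listed there under its older symbol *Sfpi1*. ETP, the most immature T lineage precursors of the thymus, were isolated by flow sorting of the Lin- CD44+ CD25- CD117+ population and lysed directly after the sort. RNA sequencing covered 2 libraries from old (72 weeks) and 2 from young adult (4 to 6 weeks) female C57BL6 mice, with no treatment or transgene in either age. The table names the old condition 20m, which is not the age in the labels. The order of the libraries within an age is only a name, and the labels do not tie them to separate animals. The p-values therefore reflect library-to-library spread only, and that spread may be technical.

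In the bone marrow, these genes act in networks that keep stem and progenitor cells multipotent. After entry into the thymus, Notch signalling switches on the T lineage program while the inherited factors are still made, and commitment follows once they are silenced. Several of them, such as *Lmo2*, *Lyl1*, *Mef2c* and *Hhex*, are known for driving T cell leukemia when their expression persists. *Spi1*, *Mef2c*, *Bcl11a* and *Lyl1* are also expressed outside the T lineage, in dendritic, myeloid or B lineage cells.

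The libraries held 11816478 and 4839341 fragments in old and 16658864 and 6414915 in young ETP, replicates 1 and 2, so replicate 1 was the deeper library of each age. *Kit*, which encodes CD117, was at 935.9 and 945 normalized CPM (CPM, fragments scaled by library total, after TMM scaling between libraries) in old and at 764 and 1096 in young ETP. *Cd44* was at 636 and 519 in old and at 496 and 517 in young ETP. *Il2ra*, which encodes CD25, was at 31.8 and 22.9 in old and 26.3 and 39.9 in young ETP. The gene for the pre-T cell receptor chain *Ptcra*, a marker of later thymocytes, was listed at 0 in all 4 libraries. Markers of other cell types were also detected. The 14 markers of conventional dendritic cells summed to 5621 and 18050 normalized CPM in old and to 1352 and 1842 in young ETP, with old replicate 2 far above the rest. Most of the old sums came from the MHC class II pathway genes *Cd74*, at 2845 and 9057, and *H2-Ab1*, at 866 and 3687. The 14 markers of NK and innate lymphoid cells summed to 436 and 762.1 in old and to 267 and 299.7 in young ETP. Most of the young sums was *Nkg7*, which was at 230.9 and 157.5 in old and at 220.3 and 213.5 in young ETP.

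As *Erg* and *Spi1* encode DNA-binding factors of the ETS family, the promoters (250 bases before to 50 after the gene start) of the members were searched for GAGGAA, an extended core of the SPI1 (PU.1) site, and CCGGAA, a core bound by the ERG and FLI1 class, on both strands. RefSeq promoters (GRCm38.p6) were matched by symbol for 8 members, with 12 promoters in all. GAGGAA was in 4 of the 12, from 3 members, and in 28.3% of the 32851 promoters searched. CCGGAA was in 2 of the 12, from 2 members, and in 14.9% of all promoters. The sequences of 3 of them, with both motifs in capitals, are *Lyl1* at chr8:84701207-84701506 (plus strand), the promoter with most CCGGAA matches among the members, *Hoxa9* at chr6:52227321-52227620 (minus strand), with most GAGGAA matches, and the most upstream promoter of *Mef2c* at chr13:83503784-83504083 (plus strand), with a single GAGGAA match. TTCCTC and TTCCGG are the same motifs read from the other strand. A match is a description of the letters and not evidence of a bound site.
Lyl1: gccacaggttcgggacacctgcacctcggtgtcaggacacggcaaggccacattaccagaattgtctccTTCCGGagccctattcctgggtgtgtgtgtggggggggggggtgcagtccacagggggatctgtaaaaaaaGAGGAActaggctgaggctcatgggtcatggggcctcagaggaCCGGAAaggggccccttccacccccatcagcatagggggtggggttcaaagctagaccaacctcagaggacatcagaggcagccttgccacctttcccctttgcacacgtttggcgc
Hoxa9: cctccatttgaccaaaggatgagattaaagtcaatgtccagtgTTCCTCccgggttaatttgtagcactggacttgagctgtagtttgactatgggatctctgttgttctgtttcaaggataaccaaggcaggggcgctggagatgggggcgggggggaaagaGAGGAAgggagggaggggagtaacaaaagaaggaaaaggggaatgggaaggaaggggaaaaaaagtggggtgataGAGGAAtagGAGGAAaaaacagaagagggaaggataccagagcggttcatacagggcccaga
Mef2c: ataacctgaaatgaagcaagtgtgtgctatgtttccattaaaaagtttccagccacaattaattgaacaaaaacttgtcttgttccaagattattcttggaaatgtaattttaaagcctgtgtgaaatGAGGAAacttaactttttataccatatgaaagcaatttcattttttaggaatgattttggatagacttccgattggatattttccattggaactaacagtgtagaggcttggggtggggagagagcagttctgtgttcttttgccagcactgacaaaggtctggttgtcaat
*Lyl1* held 2 CCGGAA matches and 1 GAGGAA match, and *Hoxa9* held 4 GAGGAA matches, each beginning before the RefSeq start of its promoter. For *Hoxa9* that start lies inside the GENCODE gene, at chr6:52223100-52231089.

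All 10 members were among the 10080 genes tested, which had an FPKM (fragments scaled by transcript length and library total) of at least 1 in at least 2 libraries. In old ETP, 6 members (*Lyl1*, *Mef2c*, *Bcl11a*, *Hhex*, *Erg* and *Hoxa9*) were below the young level in both libraries, against 15.5% of all tested genes. *Spi1* alone was above it in both, against 16.1% of all tested genes, and *Lmo2*, *Meis1* and *Gfi1b* overlapped between the ages. Estimates were lower in old ETP for 7 of the 10, against 53.4% of all tested genes, and their median log2 fold change of old over young was -0.29, against -0.03 for all tested genes. At an adjusted p under 0.05, edgeR's quasi-likelihood test called 0 of the 10 members and 0% of all tested genes, the smallest adjusted p of any gene being 0.325. At an unadjusted p under 0.05 edgeR had 2 members, *Erg* lower and *Spi1* higher, against 5.57% of all tested genes. DESeq2 called 0 of the 10, with 0 at an unadjusted p under 0.05, against 0.149% of all tested genes called lower and 2.08% called higher in old ETP. In an exact two-sided permutation test, 2 libraries against 2 cannot give a p below 0.333 for a single gene. In these bulk libraries, fewer cells that express a gene and less RNA per cell cannot be told apart.

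**Figure D1:**
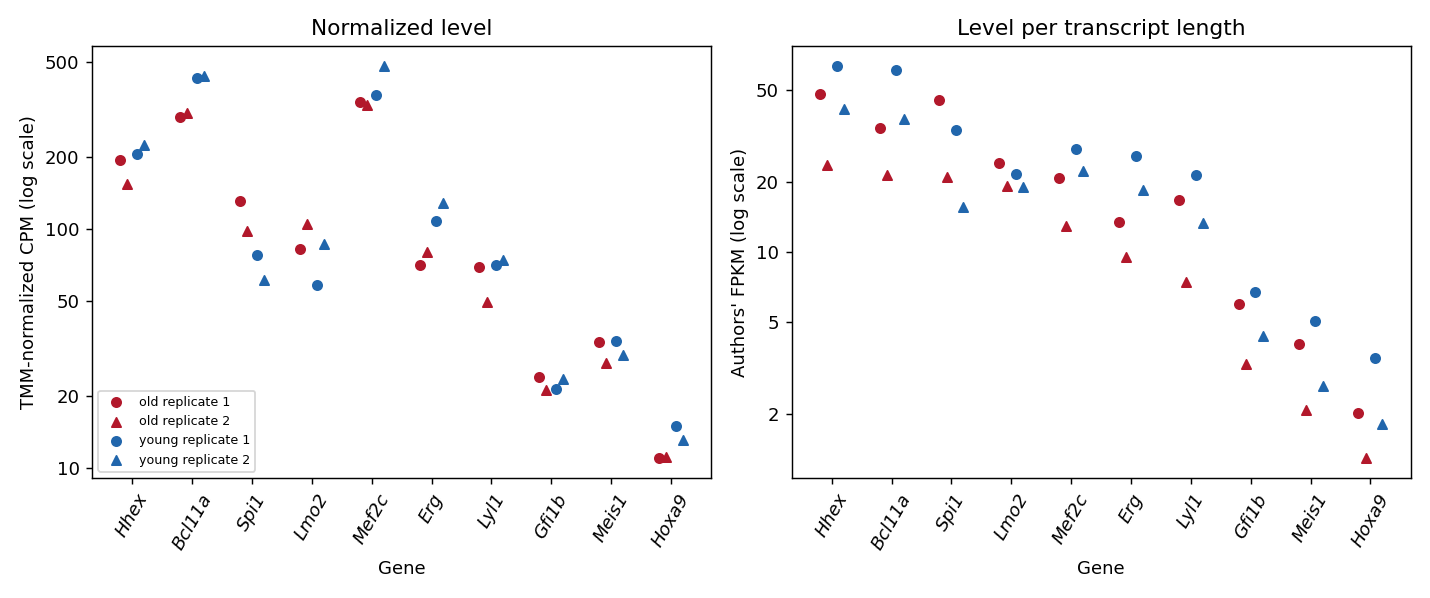
Levels of the 10 members in each library, as TMM-normalized CPM (left) and as the authors' FPKM (right), both on log axes. Each point is a library (red old, blue young, circle replicate 1, triangle replicate 2) and genes are ordered by mean FPKM, from *Hhex* at 44.1 to *Hoxa9* at 2.16. In normalized CPM both red points lie below both blue points for 6 genes and above them for *Spi1*.

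Compared per transcript length, the members spanned a wide range. Over all 4 libraries *Hhex*, *Bcl11a* and *Spi1* had the highest mean FPKM. *Hhex* averaged 35.8 in old and 52.4 in young ETP, *Bcl11a* 27.9 in old and 49.0 in young ETP, and *Spi1* 33.1 in old and 24.7 in young ETP. *Spi1* was thus above *Bcl11a* in the old mean and below it in the young mean. The order of the old means rested on old replicate 1, with *Spi1* at 45.3 and *Bcl11a* at 34.3. In old replicate 2, *Spi1* was at 21.0 and *Bcl11a* at 21.4. *Lmo2*, *Mef2c*, *Erg* and *Lyl1* formed a middle group, with means over all 4 libraries of 14.75 to 21.0. *Gfi1b*, *Meis1* and *Hoxa9* were lowest, at means of 5.09, 3.45 and 2.16. The libraries of an age differed enough that neighbours within the middle group were not separated. Ranked by FPKM among all genes above 0 in a library, *Hhex* stood at percentiles 96.3 and 95.3 in old and 96.5 and 97.2 in young ETP. *Spi1* stood at 96.1 and 94.5 in old and at 92.4 and 89.7 in young ETP, and *Erg* at 82.8 and 84.4 in old and at 89.5 and 91.9 in young ETP. Thus *Spi1* ranked above *Erg* in both old libraries and in young replicate 1, while in young replicate 2 *Erg* ranked higher.

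*Erg* and *Spi1* encode ETS family factors, and they had the largest estimates in opposite directions. *Erg*, which is needed for the maintenance of stem cells, lies at chr16:95359169-95586593 on the minus strand (GRCm38, GENCODE). It was at 70.5 and 79.95 normalized CPM in old and at 108 and 129 in young ETP. Every old value was below every young value, with means of 75.2 ± 6.69 in old and 118.5 ± 14.7 in young ETP (SD, n = 2 each), a ratio of 0.635. The log2 fold change was -0.66 (standard error 0.26, 95% interval -1.30 to -0.01), and it was not called by edgeR (adjusted p = 0.889). With a library left out it ran from -0.78 to -0.52. The authors' FPKM gave the same order, with 13.5 and 9.57 in old and 25.9 and 18.4 in young ETP. FPKM sums follow depth, however, and on that scale the median log2 fold change of all tested genes was also below 0, at -0.27.

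*Spi1* encodes PU.1, the factor that drives myeloid and dendritic cell genes and whose silencing is a step of T lineage commitment. It lies at chr2:91082390-91115756 on the plus strand. It was at 132 and 98.7 normalized CPM in old and at 77.8 and 61.3 in young ETP. Both old libraries were above both young libraries, with means of 115 ± 23.4 in old and 69.6 ± 11.6 in young ETP (SD, n = 2 each), a ratio of 1.66. The log2 fold change was 0.73 (standard error 0.29, 95% interval 0.003 to 1.45), not called by edgeR (adjusted p = 0.897), and with a library left out it ran from 0.54 to 0.91. On the authors' FPKM, whose sums follow depth, the ages overlapped, at 45.3 and 21.0 in old and 33.7 and 15.6 in young ETP. *Spi1* was higher in replicate 1 than in replicate 2 in both ages, whereas the sum of the dendritic cell markers was higher in replicate 2 in both ages. *Irf8*, a partner of PU.1 that is also on the dendritic cell list, was at 277 and 864.5 in old and at 59.9 and 82.8 in young ETP (log2 fold change 3.0, edgeR adjusted p = 0.362, DESeq2 adjusted p = 2.4e-05). The ratio of *Irf8* to *Spi1* fragments was 2.102 and 8.76 in old and 0.771 and 1.35 in young ETP. The part of dendritic cell transcripts in the *Spi1* level was not tested.

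**Figure D2:**
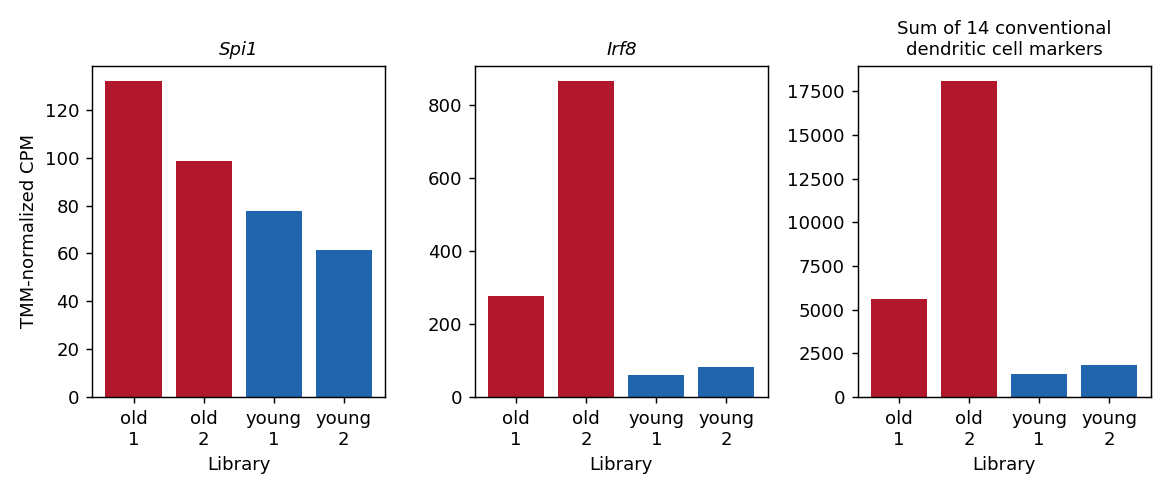
TMM-normalized CPM of *Spi1*, *Irf8* and the sum of 14 conventional dendritic cell markers in each library (red old, blue young, bars start at 0). In both ages *Spi1* is higher in replicate 1, whereas *Irf8* and the marker sum are higher in replicate 2. *Irf8* is also one of the 14 markers.

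Of 14 genes chosen as known PU.1 targets, 13 were tested and 0 passed edgeR or DESeq2, with 8 higher and 5 lower estimates in old than in young ETP (median log2 difference 0.19, running from 0.14 without old replicate 2 to 0.49 without old replicate 1). At an unadjusted p under 0.05 edgeR had 5 of the 13 higher, against 4.65% of all tested genes. These 5, named after their values were seen, were *Csf2ra*, *Csf2rb* and *Fcer1g*, which encode receptor chains, and *Ncf1* and *Ncf4*, which encode parts of the phagocyte oxidase. All 5 were highest in old replicate 2, the library with the highest sum of dendritic cell markers. *Csf2rb*, for example, was at 110.9 and 254.9 in old and at 71.9 and 77.5 in young ETP. Whether these genes followed *Spi1* or the share of other cells was not tested. *Mpo*, the myeloperoxidase gene and the member of that list with the highest level, was at 1126 and 437 in old and at 1716 and 1092 in young ETP. *Flt3*, a cytokine receptor gene of early progenitors, was at 239 and 358 in old and at 279 and 243 in young ETP, so the ages overlapped.

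*Lmo2* and *Lyl1* encode parts of a single complex, in which the LIM protein LMO2 bridges basic helix-loop-helix factors such as LYL1 or TAL1 and GATA factors. *Lmo2* lies at chr2:103957986-103981878 on the plus strand. It was at 82.7 and 105 normalized CPM in old and at 58.4 and 87.0 in young ETP. Old replicate 1 was below young replicate 2, so the ages overlapped. The log2 fold change was 0.37 (95% interval -0.41 to 1.15, edgeR adjusted p = 0.999), and it ran from 0.11 to 0.69 with a library left out. *Lyl1* lies at chr8:84701457-84704715 on the plus strand. It was at 69.2 and 49.5 in old and at 70.9 and 74.3 in young ETP. The values did not overlap, but old replicate 1 was close to the young libraries, and the log2 fold change of -0.29 (95% interval -0.99 to 0.41, edgeR adjusted p = 0.999) ran from -0.51 to -0.10 with a library left out. An exon of *Nfix* overlaps *Lyl1* on the other strand, and *Nfix* was at 70.6 and 53.6 in old and at 55.6 and 63.1 in young ETP. Since the use of strand in counting is not given, reads of this overlap cannot be assigned with certainty.

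The heptad of stem cell factors joins *Lmo2*, *Lyl1* and *Erg* with *Tal1*, *Gata2*, *Runx1* and *Fli1*. Of those 4 partners, 3 were tested, all 3 had lower estimates in old than in young ETP (median log2 difference -0.34, running from -0.59 without young replicate 1 to -0.11 without young replicate 2, with -0.14 when old replicate 1 was left out) and 0 passed edgeR or DESeq2 (0 at an unadjusted p under 0.05 in edgeR). *Runx1*, a factor that acts in both stem cells and T cells, was at 329 and 341 in old and at 374 and 525 in young ETP. *Fli1*, an ETS gene close to *Erg*, was at 108 and 140.3 in old and at 121 and 187 in young ETP. *Fli1* overlapped between the ages, and its log2 fold change of -0.31 turned to 0.04 without young replicate 2. *Gata2*, outside the tested genes, was at 7.32 and 6.97 in old and at 8.72 and 7.37 in young ETP.

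*Mef2c* and *Bcl11a* encode factors of lymphoid-primed progenitors, with roles in B lineage and dendritic cells. *Bcl11a*, a zinc finger repressor gene whose relative *Bcl11b* acts in T lineage commitment, lies at chr11:24078056-24174123 on the plus strand. It was at 295 and 306 normalized CPM in old and at 428 and 439 in young ETP. The libraries of each age were close together (SD 7.60 in old and 7.40 in young ETP, n = 2) and the ages did not overlap, with an old mean 0.694 of the young mean. The log2 fold change was -0.53 (standard error 0.25, 95% interval -1.15 to 0.10, edgeR adjusted p = 0.999), with the narrowest range on leaving out a library among the 6 non-overlapping lower members, -0.58 to -0.46. An antisense transcript, *4930538E20Rik*, overlaps its exons. *Bcl11b* was outside the tested genes, at 1.66 and 5.23 in old and at 1.58 and 2.56 in young ETP.

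*Mef2c*, a MADS box gene, lies at chr13:83504034-83667080 on the plus strand. It was at 340.1 and 332 in old and at 364 and 484 in young ETP. The ages did not overlap, but young replicate 2 carried much of the difference. The log2 fold change was -0.33 (95% interval -1.03 to 0.36, edgeR adjusted p = 0.999), and it was -0.11 without young replicate 2.

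The homeobox members were *Hhex*, *Meis1* and *Hoxa9*. *Hhex*, which acts in stem cells and early lymphoid progenitors, lies at chr19:37434810-37440731 on the plus strand. It was at 195 and 154 normalized CPM in old and at 206 and 225 in young ETP. The ages did not overlap, and old replicate 2 was the lowest (log2 fold change -0.30, 95% interval -0.97 to 0.36, edgeR adjusted p = 0.999). With a library left out the estimate ran from -0.44 to -0.17, the smallest being without old replicate 2. *Hhex* and *Lyl1* kept nearly the same ratio of fragments in all libraries, at 2.82 and 3.12 in old and at 2.90 and 3.03 in young ETP.

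*Hoxa9* and *Meis1* encode partners that bind DNA together and are known for sustaining stem cells and acute leukemia. *Hoxa9* lies at chr6:52223100-52231089 on the minus strand. It was at 10.97 and 11.11 normalized CPM in old and at 15.0 and 13.1 in young ETP, on 132 and 51 fragments in old and 257 and 82 in young ETP. The ages did not overlap, but the counts were small and the interval was the widest of the 10 (log2 fold change -0.35, 95% interval -1.22 to 0.51, edgeR adjusted p = 0.999). *Meis1* lies at chr11:18879817-19018985 on the minus strand. It was at 33.6 and 27.7 in old and at 34.1 and 29.6 in young ETP. Its libraries differed more by depth than by age (log2 fold change -0.06, 95% interval -0.81 to 0.70, edgeR adjusted p = 0.999), and the estimate turned to 0.05 without old replicate 2 or without young replicate 1. Transcripts annotated on either strand overlap exons of *Meis1*.

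Of the other 10 genes of the Hoxa cluster, 5 were tested, all 5 with lower estimates in old than in young ETP (median log2 difference -0.38, running from -0.73 without old replicate 1 to -0.23 without old replicate 2, and -0.57 without young replicate 1), and 0 passed edgeR or DESeq2 (0 at an unadjusted p under 0.05 in edgeR). *Hoxa5* was at 19.1 and 10.9 in old and at 19.2 and 20.2 in young ETP. *Hoxa7* was at 14.7 and 8.28 in old and at 14.2 and 13.9 in young ETP, overlapping between the ages, and its log2 fold change of -0.28 turned to 0.04 without old replicate 2.

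*Gfi1b* encodes a transcriptional repressor that acts in stem cells and in the erythroid and megakaryocyte lineages, and lies at chr2:28609450-28621982 on the minus strand. It was at 24.1 and 21.1 normalized CPM in old and at 21.4 and 23.5 in young ETP. The ages overlapped and the estimate was near 0 (log2 fold change 0.01, 95% interval -0.76 to 0.79, edgeR adjusted p = 0.999), its sign turning with the scaling. The interval still allowed a change of over 0.7 either way on the log2 scale. Its lineage partners were scarce, since the 10 markers of megakaryocytes and red cells summed to 20.6 and 13.7 in old and to 18.8 and 20.8 in young ETP, with *Ppbp* at 0 in all libraries.

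**Figure D3:**
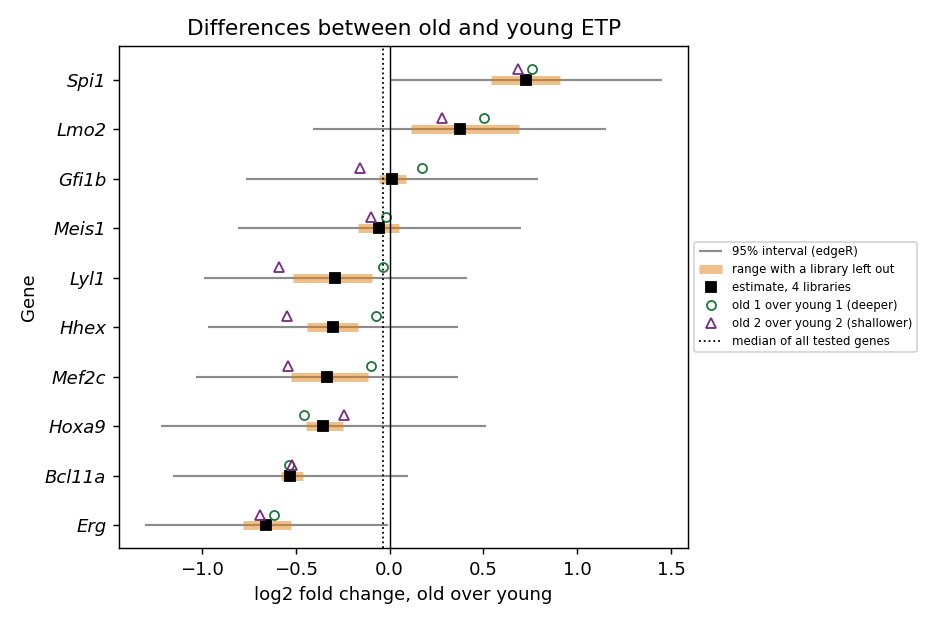
Log2 fold change of old over young ETP for each member, positive when higher in old. Squares are edgeR estimates from 4 libraries with 95% intervals (grey), orange bars are the range with a library left out, circles and triangles compare the deeper and the shallower libraries, and the dotted line is the median of all tested genes. Estimates run from -0.66 for *Erg* to 0.73 for *Spi1*, and those 2 intervals end just short of 0.

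Old and young ETP were also compared within libraries of like depth. The log2 ratio of *Gfi1b* turned from 0.175 in the deeper to -0.156 in the shallower libraries, and *Meis1* was near 0 in both (-0.02 and -0.099). For *Erg* the log2 ratio of old to young was -0.62 in the deeper (replicate 1) and -0.69 in the shallower (replicate 2) libraries. For *Bcl11a* it was -0.54 and -0.52, and for *Spi1* it was 0.76 and 0.69. These 3 genes thus differed by like amounts at both depths. In contrast, *Lyl1* was at -0.04 and -0.59, *Hhex* at -0.07 and -0.55 and *Mef2c* at -0.10 and -0.54, so that nearly all of their difference lay between the shallower libraries. Of the 10 members, 5 had their lowest level in old replicate 2, 3 in old replicate 1, and 1 each in young replicates 1 and 2. These counts are a description only, since the share over all tested genes was not computed.

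Ratios between members within a library do not depend on how libraries are scaled to each other, but a ratio shows only unequal change. The pairs were chosen after their values were seen. There were 1.87 and 1.23 *Spi1* fragments per *Erg* fragment in old and 0.719 and 0.476 in young ETP. There were 3.57 and 2.90 *Bcl11a* fragments per *Lmo2* fragment in old and 7.33 and 5.04 in young ETP. Neither ratio overlapped between the ages. For *Spi1* per *Erg* this follows from the levels, since both old libraries were above both young ones for *Spi1* and below them for *Erg*. For *Bcl11a* per *Lmo2*, however, the young libraries differed from each other about as much as the nearest old and young libraries did. *Lmo2* per *Lyl1* was at 1.196 and 2.13 in old and at 0.823 and 1.17 in young ETP, where the lowest old and the highest young ratio nearly met. *Erg* per *Fli1* was at 0.651 and 0.57 in old and at 0.897 and 0.689 in young ETP. *Bcl11a* per *Mef2c* overlapped between the ages, at 0.868 and 0.920 in old and at 1.177 and 0.906 in young ETP. So did *Lyl1* per *Tal1*, at 2.065 and 1.182 in old and at 1.751 and 1.353 in young ETP.

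**Figure D4:**
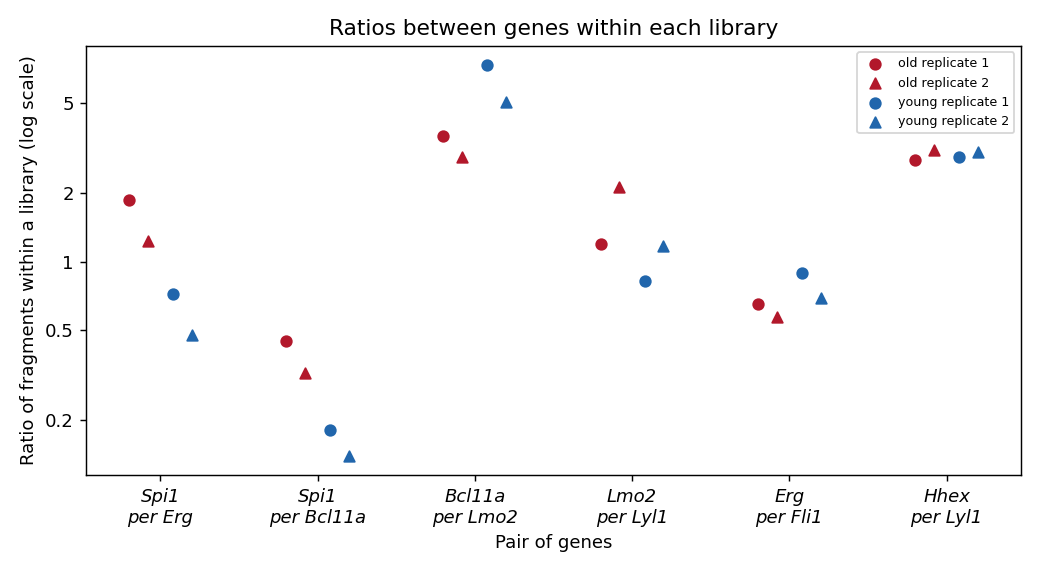
Ratio of fragments between 2 genes within each library, on a log axis (red old, blue young, circle replicate 1, triangle replicate 2). The ages are apart for *Spi1* per *Erg*, *Spi1* per *Bcl11a* and *Bcl11a* per *Lmo2*, nearly meet for *Lmo2* per *Lyl1* and *Erg* per *Fli1*, and overlap for *Hhex* per *Lyl1*.

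Lists of genes related to the members were read in the same way. Of 24 genes for cofactors, such as the LMO2 partner *Ldb1*, 20 were tested. They had 7 higher and 13 lower estimates in old than in young ETP (median log2 difference -0.18, and -0.11 without old replicate 2). None passed edgeR (2 at an unadjusted p under 0.05, both higher in old ETP), and DESeq2 called *Irf8* higher. *Cbfa2t3*, a corepressor gene of the LMO2 complex, was at 345 and 410.0 in old and at 291 and 297 in young ETP. Of 13 close relatives of the members, 8 were tested, 3 with higher and 5 with lower estimates, and 0 passed edgeR or DESeq2 (0 at an unadjusted p under 0.05 in edgeR). The ETS genes *Elf1* and *Gabpa* had the highest levels, averaging 382 ± 113 in old and 523.5 ± 201 in young ETP for *Elf1* and 171 ± 40.5 in old and 203 ± 34.5 in young ETP for *Gabpa* (SD, n = 2 each). Both overlapped between the ages.

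Of 16 other regulators of stem and progenitor cells, 9 were tested, with 2 higher and 7 lower estimates in old than in young ETP (median log2 difference -0.26, running from -0.50 without young replicate 1 to -0.11 without young replicate 2). Of these, 0 passed edgeR or DESeq2, and the 1 at an unadjusted p under 0.05 in edgeR was higher in old ETP. *Myb*, a factor of progenitor growth, was at 746 and 580.2 in old and at 923 and 1041 in young ETP without overlap. *Etv6*, an ETS repressor gene, was at 824 and 666 in old and at 825 and 938 in young ETP. Of 18 genes of T lineage commitment, 12 were tested, 6 with higher and 6 with lower estimates. DESeq2 called *Cd3e* higher and edgeR called 0. At an unadjusted p under 0.05 edgeR had 2, *Cd3e* and *Cd3g*, both higher in old ETP, *Cd3g* being named after its values were seen. *Cd3e* was at 11.2 and 36.2 in old and at 3.335 and 2.883 in young ETP. *Cd3e* had an FPKM under 1 in young replicate 2, and *Cd3g* in both young libraries. They passed the filter only with the help of old libraries in which they were high, so these counts are a description. *Notch1* was at 963 and 577 in old and at 1273 and 1204 in young ETP, and *Tcf7*, a target of Notch, was at 335 and 302 in old and at 313 and 408 in young ETP.

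Markers of other cell types differed in how far they moved. DESeq2 called 10 of the 13 tested dendritic cell markers higher in old ETP (*Xcr1*, *Clec9a*, *Zbtb46*, *Itgax*, *Batf3*, *H2-Ab1*, *Cd74*, *Ciita*, *Irf8* and *Snx22*) and 5 of the 8 tested NK and innate lymphoid markers (*Ncr1*, *Klrk1*, *Gzmb*, *Il2rb* and *Id2*), whereas edgeR called 0 of each (11 and 5 at an unadjusted p under 0.05). *Zbtb46*, *Batf3*, *Ciita*, *Ncr1* and *Klrk1* had an FPKM under 1 in both young libraries, and *Clec9a*, *Snx22*, *Gzmb* and *Il2rb* in 1 of them, so that these genes passed the filter only with the help of old libraries in which they were high. The counts over these lists are therefore a description and not support for a difference. *Xcr1*, a chemokine receptor gene of cross-presenting dendritic cells, was at 96.4 and 618 in old and at 10.2 and 26.8 in young ETP. Without old replicate 2 the median log2 fold change of the NK and innate lymphoid list was 1.52, against 2.79 with it, and that of the dendritic cell list was 1.94, against 3.10. Of 11 tested myeloid markers, DESeq2 called *Cd68* alone, and the 12 markers of that list summed to 1583 and 817 in old and to 2118 and 1382 in young ETP, mostly *Mpo*, while *Lyz2* was at 173 and 142 in old and at 128 and 111 in young ETP. The 10 markers of plasmacytoid dendritic cells summed to 576 and 721 in old and to 651 and 968 in young ETP, most of it *Runx2* and *Tcf4*, which progenitors also express, while *Klk1* was at 0 throughout. The 10 B lineage markers summed to 30.1 and 41.6 in old and to 36.9 and 27.9 in young ETP, mostly *Cd79b*, with *Pax5* at 0.08 and 1.96 in old and 0.18 and 0.16 in young ETP. Stromal markers summed to 165 and 143 in old and to 147 and 179 in young ETP, mostly *Pecam1*, and *Foxn1* was at 0. The part of these cells in the members' levels was not tested.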

How the data were processed

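Libraries of sorted ETP (Nugen Ovation system, paired-end) were aligned by the authors with STAR 2.3.0 to GRCm38 (mm10) and summarised with Cuffdiff (Cufflinks 2.1.1). HTSeq 0.5.4p3 and DESeq 1.12.1 also stand in the submitters' processing notes. For each gene and library the authors deposited an estimated count of fragments and an FPKM value. FPKM sums followed depth, at 230420 and 122998 in old and 281542 and 135313 in young ETP. For strand use in counting, the setting was not given in the sources used here.

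Both age groups were taken from the labels. Estimated counts were rounded to whole numbers, scaled by TMM and tested with edgeR 4.0.16 in R 4.3.3 (quasi-likelihood, a single age term), the p-values being adjusted by Benjamini-Hochberg over the 10080 tested genes at a threshold of 0.05. Standard errors were the estimate divided by the square root of F. A gene at 0 could still be present at up to 3 counts, which equals 0.176 to 0.654 normalized CPM across libraries, and this limit covers counting error only. The 2 libraries of an age were not copies of each other (chi-square per gene 83.3 in old and 71.1 in young). As alternatives, DESeq2 1.42.0, edgeR's likelihood ratio test, other scalings and filters, limma 3.58.1 on log2(FPKM + 1) and log2(FPKM + 0.1), a replicate block and the omission of each library were run. The scripts were tested on simulated data.

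The members and all gene lists were chosen with earlier results of these data known. The text names all members and, from each list, the genes called by edgeR or DESeq2 and the 2 with the highest level. *Gata2*, *Il2ra*, *Ptcra*, *Bcl11b*, *Nfix*, *Pax5* and the genes at 0 were named after their values were seen, and *Hbb-b1*, *Itga2b* and *Col1a1* enter only through the sums of their lists. Some genes that the rule or a count would name are not reported here. Positions are from GENCODE on GRCm38, and promoters from RefSeq.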

Additional observations from a re-analysis of the deposited data

How the results depend on the processing

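No member was called under any of the alternatives except the replicate block. The replicate block called 3 members, *Bcl11a* (log2 fold change -0.53, adjusted p = 0.0345) and *Erg* (-0.65, 0.0371) lower and *Spi1* (0.72, 0.0228) higher in old ETP, among 777 genes (578 higher, 199 lower). Over the other alternatives the lowest adjusted p was 0.663 for *Spi1*, 0.746 for *Erg* and 0.89 for *Bcl11a*. The replicate numbers have no stated meaning beyond a name. The difference between replicates 1 and 2 correlated between the ages across genes (r = 0.734), and the libraries numbered 1 were the deeper ones.

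Over all genes, edgeR called 0, against 225 by DESeq2, 209 by the likelihood ratio test, 508 with no filter and 0 to 221 with a library left out (221 without old replicate 1). The median of the members, -0.29, was -0.50 with limma on log2(FPKM + 1) and -0.60 on log2(FPKM + 0.1), where the medians of all tested genes were -0.27 and -0.33, and ran from -0.31 to -0.13 with a library left out (-0.13 without old replicate 2). The FPKM sums follow depth, so FPKM-scale values are read against those medians.

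Direction held in all 13 alternatives for 8 members. It turned for *Gfi1b* (-0.019 with upper-quartile scaling, -0.23 and -0.28 on FPKM, and -0.056 to 0.085 with a library left out) and for *Meis1* (-0.17 to 0.05 with a library left out). Among other named genes, *Kit* turned to -0.016 with upper-quartile scaling, and on FPKM with pseudocounts of 1 and 0.1 *Kit* was -0.24 and -0.25, *Flt3* -0.12 and -0.12 and *Cd44* -0.10 and -0.11. With a library left out *Kit* ran from -0.22 to 0.30, *Flt3* from -0.16 to 0.49, *Fli1* from -0.59 to 0.043, *Elf1* from -0.81 to 0.003, *Gabpa* from -0.53 to 0.02, *Hoxa7* from -0.73 to 0.036, *Tcf7* from -0.36 to 0.026 and *Il2ra* from -0.54 to 0.063. The cause of these changes was not tested. Leaving out a library leaves 1 in that age, whose spread is then taken from the other age.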
